A study of Mus musculus with 21 samples.

Results

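Cells make cholesterol from acetyl-CoA through mevalonate, isoprenoids, squalene and lanosterol. The 8 genes described here were Hmgcs1, Idi1, Fdps, Sqle, Lss, Cyp51, Insig1 and Srebf2, of which 6 encode enzymes of this pathway and 2 belong to its control. They were taken by name as genes of the Srebf2 pathway. The rule uses no measured value, though the genes were listed with earlier results of these data known. Their rows were 8 of the 55414 gene identifiers in the table of counts, and all 8 were among the 13070 genes that passed the filter on low counts. The question was whether they moved together with microbes or with zinc.

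Paneth cells, the granular secretory cells at the base of small intestinal crypts, were sorted by FACS and measured by bulk RNA-seq in 21 libraries. The mice, C57BL/6J per the methods of the study, had Milli-Q (purified) water or zinc sulfate water to drink over 7 weeks, the latter labelled as 200 mM. There were 3 SPF (specific pathogen free) mice on Milli-Q water and 3 on zinc water, 4 SPF mice on each water that had broad-spectrum antibiotics during the final 3 weeks, and 3 germ-free mice on Milli-Q water and 4 on zinc water. No group carried a transgene per the labels, the age of the mice was not stated, and each library came from 1 mouse per the study. The sort took cells high in CD24 and c-Kit and without blood or endothelial surface markers, so the counts describe what this gate held.

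SREBP2, the product of Srebf2, is a transcription factor made as a precursor in the membrane of the endoplasmic reticulum. When sterols are low, the escort protein Scap carries it to the Golgi, where proteases release the part that enters the nucleus and switches on genes of cholesterol synthesis and uptake. When sterols are high, Insig1 holds Scap in the endoplasmic reticulum. Because Insig1 and the pathway enzymes are themselves SREBP2 targets, their transcripts are commonly read as a group, while control of SREBP2 itself lies largely in the processing of the protein. The intestinal epithelium both makes cholesterol and takes it up from the gut.

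The libraries held 9888174 to 16896714 counts each (median 12936001). Levels are given as CPM, a count relative to the library total, scaled by TMM factors, which correct for the share of counts taken by a few genes. The 28 protein-coding Defa genes held 39.3 to 44.5% of counts in germ-free libraries and 24.1 to 36.4% in the others, and ribosomal RNA held 1.44 to 10% over all libraries. The Paneth cell markers (6 genes) held 28.7 to 51.5% of counts. Markers of stromal and endothelial cells summed to at most 0.775 CPM, with Col3a1 and Cdh5 at 0 in every library, and those of immune cells (8 genes) to at most 19.0 CPM, while goblet cell markers (7 genes) summed to 8260 to 20500 CPM, stem and cycling cell markers (8 genes) to 2330 to 5350, tuft cell markers (6 genes) to 85.5 to 313 and enteroendocrine markers (8 genes) to 59.9 to 212. Enterocyte markers (8 genes) summed to 181 to 415 CPM in the SPF Milli-Q group, 674 to 1340 in the SPF zinc group, 148 to 197 after antibiotics on Milli-Q water and 196 to 371 on zinc water, and 177 to 697 in germ-free mice on Milli-Q water and 207 to 1530 on zinc water. SPF zinc replicate 1 stood apart from the other 20 libraries by 6228 counts of Xist, a transcript of female cells, against at most 34 elsewhere. In bulk samples, fewer cells of a type and less RNA per cell cannot be told apart.

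SREBP2 acts through sites in promoters, and the bases before the start site are therefore shown for 4 genes. Hmgcs1, Idi1 and Cyp51 are the genes called for zinc after antibiotics that had a sequence to show, and Srebf2 encodes the factor itself. Of the 8 genes, 6 had an entry in the RefSeq promoter table (built on GRCm38.p6), and each was placed in GRCm39 by its single exact match in the genome. The 250 bases before the RefSeq start site are printed 5′ to 3′ in the direction of the gene. For Idi1, Cyp51 and Srebf2 the gene starts earlier in GENCODE M39 (8935537, 4154751 and 82031382). The end of each of these stretches therefore lies within the gene as annotated there. This part holds all marked letters of Idi1 and the CCAAT letters of Cyp51. It also holds the GC boxes of Srebf2 at offsets -79, -52 and -34 from the RefSeq start site. Capitals mark TCACCCCA (letters of a sterol regulatory element), the letters CCAAT of the box of that name, the letters GGGCGG of the GC box, or a reverse complement of these. The stretch lies at chr13:120151637-120151886 (+) for Hmgcs1, chr13:8935392-8935641 (+) for Idi1, chr5:4154698-4154947 (-) for Cyp51 and chr15:82031220-82031469 (+) for Srebf2, all in GRCm39.
Hmgcs1: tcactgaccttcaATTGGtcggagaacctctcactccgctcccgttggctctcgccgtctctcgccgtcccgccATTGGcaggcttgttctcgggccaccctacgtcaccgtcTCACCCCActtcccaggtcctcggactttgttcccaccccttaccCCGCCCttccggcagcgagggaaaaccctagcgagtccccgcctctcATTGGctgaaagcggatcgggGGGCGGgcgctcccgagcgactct
Idi1: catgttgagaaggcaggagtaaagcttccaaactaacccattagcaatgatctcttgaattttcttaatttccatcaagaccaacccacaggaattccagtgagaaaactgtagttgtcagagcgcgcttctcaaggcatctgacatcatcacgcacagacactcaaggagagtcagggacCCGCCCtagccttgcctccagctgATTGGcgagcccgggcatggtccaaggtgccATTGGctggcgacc
Cyp51: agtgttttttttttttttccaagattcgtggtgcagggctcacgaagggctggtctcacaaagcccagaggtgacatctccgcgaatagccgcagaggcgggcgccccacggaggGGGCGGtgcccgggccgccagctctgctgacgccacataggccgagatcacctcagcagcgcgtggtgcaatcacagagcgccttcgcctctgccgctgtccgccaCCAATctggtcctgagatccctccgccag
Srebf2: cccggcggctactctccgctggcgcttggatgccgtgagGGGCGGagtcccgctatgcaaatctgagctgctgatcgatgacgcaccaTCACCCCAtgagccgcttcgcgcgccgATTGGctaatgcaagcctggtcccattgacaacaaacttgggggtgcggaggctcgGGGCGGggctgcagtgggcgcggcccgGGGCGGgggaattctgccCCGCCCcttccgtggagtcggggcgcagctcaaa

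The letters TCACCCCA, searched on both strands, were found in 2 of the 6 stretches, those of Hmgcs1 and Srebf2, and in 1.34% of the 32851 promoters of the RefSeq table over the same 250 bases. CCAAT, the box bound by NF-Y, was found in 6 of 6 and in 33.8% of all promoters. For Idi1, Lss and Cyp51 these letters lay within the gene as annotated in GENCODE M39. GGGCGG, the GC box bound by Sp1, was found in 6 of 6 and in 32.7% of all. The E-box CACGTG was found in 1 of 6, that of Insig1, and in 6.02% of all. None of these motifs overlapped another in the printed stretches. A match of letters is a description of the sequence and not a bound site.

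Compared per length of the longest annotated transcript (TPM, medians over 21 libraries), the transcription factor and the first enzyme were the most abundant. Srebf2 had a median of 22.5 TPM, Hmgcs1 16.0, Insig1 9.79, Cyp51 7.49, Sqle 4.86, Lss 2.81, Idi1 1.40 and Fdps 0.869. Of the neighbours in this order, Hmgcs1 exceeded Insig1, Cyp51 exceeded Sqle and Sqle exceeded Lss in all 21 libraries. Srebf2 exceeded Hmgcs1 in 16 of 21, Insig1 exceeded Cyp51 in 16 of 21, Lss exceeded Idi1 in 19 of 21 and Idi1 exceeded Fdps in 18 of 21. The enzymes of the isoprenoid steps, Idi1 and Fdps, therefore rested on few reads, from 5 to 185 counts per library for Idi1 and from 0 to 84 for Fdps.

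For Idi1, 79.3% of the 60-base stretches of the longest transcript occur elsewhere in GRCm39, so its level depends on how reads that map to several places were counted, which the sources used here do not state. The share was 15% for Insig1, 6.69% for Hmgcs1, 4.63% for Sqle, 3.84% for Fdps and 0 for Lss, Cyp51 and Srebf2. Cyp51 overlaps Akap9 and Sqle overlaps Washc5 on the opposite strand, and the use of strand in the counting is not stated either. Values of Idi1 are uncertain for this reason.

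All 8 genes had their highest group mean in antibiotics mice on zinc water, and 7 of the 8, all but Fdps, had their lowest in germ-free mice on Milli-Q water. The groups between these overlapped for every gene, and in no gene did neighbouring groups in the order of means separate fully. Relative to its level, Srebf2 had the narrowest range of group means, from 92.2 ± 14.5 CPM (SD, n = 3) in germ-free mice on Milli-Q water to 110 ± 9.31 CPM (SD, n = 4) in antibiotics mice on zinc water.

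**Figure D1:**
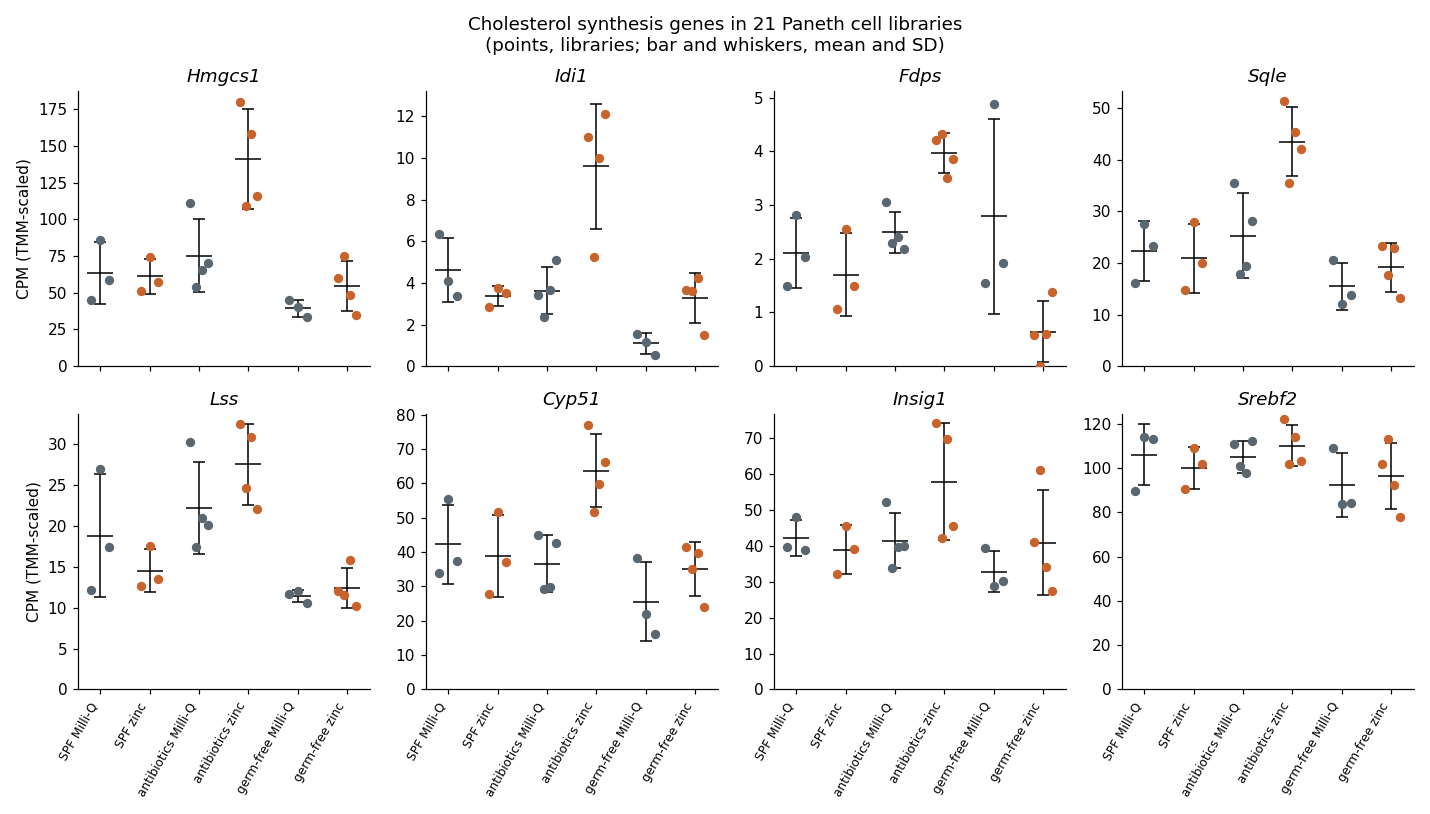
TMM-scaled CPM (linear axes from 0) of the 8 genes in the 6 groups. Points are libraries (grey, Milli-Q; orange, zinc), and the bar and whiskers give the mean and SD of 3 or 4 libraries. The antibiotics zinc group has the highest mean in each panel, from 3.97 CPM for Fdps to 141 CPM for Hmgcs1.

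Zinc water was first compared with Milli-Q water in each microbiome context, by edgeR's quasi-likelihood test on all 13070 genes with Benjamini-Hochberg adjustment and a threshold of 0.05. In SPF mice none of the 8 genes passed, nor did any have an unadjusted p under 0.05, and DESeq2 and limma-voom also called 0 of them. All 8 log2 differences were below 0, with a median of -0.12 against -0.02 over all genes. The common sign depended on single libraries. Without SPF zinc replicate 1, 4 of the 8 were above 0 at a median of 0.00. Without SPF Milli-Q replicate 2, 3 were above 0 at a median of -0.01. The other fits that left out a library had 0 above 0, and limma-voom had 2 above 0 at a median of -0.04. Of all genes tested, 0.138% passed in this comparison. Hmgcs1, the enzyme that joins acetoacetyl-CoA and acetyl-CoA on the way to mevalonate, stood at 45.3, 86.2 and 58.8 CPM on Milli-Q water and at 51.4, 74.6 and 57.2 CPM on zinc water. These groups overlapped throughout, and the log2 difference was -0.06 ± 0.27 (SE). Enterocyte markers lay above 0 in 8 of 8 in this comparison, with a median log2 difference of 2.19, and 1 of them passed the test.

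After antibiotics, zinc water went with higher levels of several of the genes. Hmgcs1, Sqle, Idi1 and Cyp51 rose, and 4 of the 8 genes were thus called higher, against 10.2% of all genes called higher and 21.7% called in either direction. All 8 differences were above 0, with a median log2 difference of 0.73 against 0.01 over all genes.

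Hmgcs1 (ENSMUSG00000093930, chromosome 13, 120151915 to 120170470 in GRCm39) stood at 111, 53.9, 65.7 and 70.4 CPM in antibiotics mice on Milli-Q water and at 180, 109, 158 and 116 CPM on zinc water. Only replicate 1 of the Milli-Q group reached into the zinc range. The log2 difference was 0.90 ± 0.23 (SE, n = 4 and 4, edgeR adjusted p = 0.0106), a fold of 1.87.

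Idi1 (ENSMUSG00000058258, chromosome 13, 8935537 to 8942487) interconverts the isoprenoid units isopentenyl and dimethylallyl diphosphate. It stood at 3.41, 2.36, 3.65 and 5.11 CPM on Milli-Q water and at 11, 5.25, 10 and 12.1 CPM on zinc water. The zinc libraries all exceeded the Milli-Q libraries, though zinc replicate 2 exceeded the highest of them only slightly. The log2 difference was 1.39 ± 0.30 (SE, edgeR adjusted p = 0.00391), the largest of the 8, in a gene whose counts are uncertain as described above.

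Sqle (ENSMUSG00000022351, chromosome 15, 59186869 to 59203043) encodes squalene epoxidase, which adds the first oxygen to squalene and is a control point of the pathway after mevalonate. It stood at 35.5, 17.9, 19.5 and 28.2 CPM on Milli-Q water and at 51.3, 35.4, 45.3 and 42.0 CPM on zinc water, and the groups met at a single pair of libraries. The log2 difference was 0.78 ± 0.23 (SE, edgeR adjusted p = 0.0192).

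Cyp51 (ENSMUSG00000001467, chromosome 5, 4123416 to 4154751) removes a methyl group from lanosterol. It stood at 44.9, 29.1, 29.9 and 42.6 CPM on Milli-Q water and at 76.9, 51.7, 59.8 and 66.2 CPM on zinc water, with no overlap. The log2 difference was 0.80 ± 0.23 (SE, edgeR adjusted p = 0.0193). Without antibiotics Milli-Q replicate 2 or 3, or without antibiotics zinc replicate 1, neither Sqle nor Cyp51 passed, with adjusted p values up to 0.0782 and 0.0731, while Hmgcs1 and Idi1 passed in all 8 fits that left out a library. Scaled by library totals instead, Idi1 alone of the 8 passed and 150 of 13070 genes were called higher, at a median of 0.55 over the members and -0.15 over all genes.

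The other members did not pass. Fdps (ENSMUSG00000059743, chromosome 3, 89000888 to 89019213), which makes farnesyl diphosphate, stood at 2.19 to 3.05 CPM on Milli-Q water and 3.50 to 4.32 on zinc water without overlap, at a log2 difference of 0.68 ± 0.40 (SE, edgeR adjusted p = 0.229). With Idi1 and Cyp51 it was the third of 3 genes whose zinc libraries all lay above, a pattern seen in 13.9% of all genes. Lss (ENSMUSG00000033105, chromosome 10, 76367298 to 76392976), which closes the sterol rings to lanosterol, differed by 0.31 ± 0.20 (SE). Insig1 (ENSMUSG00000045294, chromosome 5, 28276315 to 28283668) differed by 0.48 ± 0.21 (SE, edgeR adjusted p = 0.0954). Srebf2 (ENSMUSG00000022463, chromosome 15, 82031382 to 82093201) stood at 97.6 to 112 CPM on Milli-Q water and 102 to 122 CPM on zinc water, a log2 difference of 0.07 ± 0.13 (SE). Enterocyte markers, of which 5 of 8 were above 0 with 1 called higher, had a median of 0.45 in the same comparison. Of 8 stem and cycling cell markers 2 were called higher and 1 lower, with a median of 0.14. The number of genes with counts was 17468 to 18072 in libraries of the Milli-Q group and 15870 to 16558 in those of the zinc group, and ribosomal RNA held 1.63 to 2.03% and 1.96 to 6.09% of counts. The part of these in the values of the cholesterol genes was not tested.

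In germ-free mice 2 of the 8 genes passed and they moved in opposite directions, in a comparison where 11.4% of all genes were called, 5.89% higher and 5.47% lower. Idi1 rose by a log2 difference of 1.59 ± 0.45 (SE, edgeR adjusted p = 0.0292), from 1.55, 1.18 and 0.535 CPM to 3.68, 3.61, 4.25 and 1.49 CPM. Zinc replicate 4 alone lay within the Milli-Q range, and the counts behind these values were only 5 to 12 reads on Milli-Q water and 14 to 36 on zinc water.

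Fdps, the next enzyme in the pathway, fell by 2.07 on the log2 scale with an SE of 0.56 (edgeR adjusted p = 0.0232). It stood at 1.55, 4.88 and 1.93 CPM on Milli-Q water and at 0.581, 0, 0.590 and 1.38 CPM on zinc water, with 0 to 13 counts on zinc water. Each zinc library lay below each Milli-Q library, as in 8.78% of all genes. Both calls depended on single libraries. Idi1 did not pass in 5 of 7 fits that left out a library, those without Milli-Q replicate 2, Milli-Q replicate 3 or one of zinc replicates 1, 2 and 3 (adjusted p up to 0.128). Fdps did not pass in 4 of 7, those without Milli-Q replicate 2 or one of zinc replicates 1, 2 and 3 (adjusted p up to 0.213). With only the 7 germ-free libraries in the fit, 0 of the 8 were called, and only 3 of the 11448 genes tested there, against 1485 of 13070 with all libraries.

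The other 6 genes had log2 differences between 0.06 and 0.47 in germ-free mice and did not pass. For Hmgcs1 the libraries stood at 44.8, 40.1 and 33.4 CPM on Milli-Q water and 60.2, 74.7, 48.6 and 34.8 CPM on zinc water, so that zinc replicate 4 lay at the level of the Milli-Q libraries. The same library was the lowest of its group in Cyp51, Sqle, Lss, Insig1, Srebf2 and Idi1 as well. The median over the 8 genes was 0.31 against -0.02 over all genes. Enterocyte markers were above 0 in 8 of 8, with a median of 0.81 and 2 called higher. Of 8 stem and cycling cell markers 1 was called higher and 0 lower, with a median of 0.21. The part of these markers was not tested.

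Averaged over the 3 contexts, Hmgcs1 and Idi1 rose, 2 of 8 against 10.7% of all genes called higher and 21.9% called at all. The averaged log2 difference was 0.44 ± 0.15 (SE, edgeR adjusted p = 0.0381) for Hmgcs1 and 0.85 ± 0.22 (adjusted p = 0.00992) for Idi1. Hmgcs1 lost the call in 12 of 21 fits that each left out 1 library, with adjusted p values of up to 0.0803, and Idi1 in none. The call of Hmgcs1 was lost without SPF Milli-Q replicate 1 or 3, SPF zinc replicate 2 or 3, antibiotics Milli-Q replicate 2 or 3, or antibiotics zinc replicate 1 or 3. It was also lost when the replicate left out was 1 or 2 of the germ-free mice on zinc water, or 2 or 3 of those on Milli-Q water. The count of members called was 3 without SPF Milli-Q replicate 2, SPF zinc replicate 1 or germ-free Milli-Q replicate 1, where Cyp51 was gained. In these fits 2933 of 13286, 2183 of 13362 and 2990 of 13370 genes were called. Without germ-free zinc replicate 4, Sqle (edgeR adjusted p = 0.0447) and Cyp51 were gained as higher and Fdps (edgeR adjusted p = 0.0262) as lower. Enterocyte markers were above 0 in 8 of 8 in this average, with 4 called higher and a median of 1.14, while 2 of 7 goblet cell markers and 1 of 5 tuft cell markers tested were called lower. Of 8 stem and cycling cell markers 2 were called higher and 1 lower, with a median of 0.17. The part of these markers was not tested.

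Whether the zinc response differed between contexts was tested directly. For antibiotics against SPF mice, all 8 differences of the zinc effect were above 0, led by Idi1 at 1.82 ± 0.47 (SE, edgeR adjusted p = 0.109), Fdps at 0.98 ± 0.63, Hmgcs1 at 0.96 ± 0.36 and Cyp51 at 0.92 ± 0.36 on the log2 scale. None passed by edgeR, although 5 genes (Hmgcs1, Sqle, Idi1, Lss and Cyp51) had an unadjusted p under 0.05. Over all genes the same test called 0% of genes, with 2418 at an unadjusted p under 0.05. DESeq2 and limma-voom each called 1 of the 8 genes and 260 and 473 of all genes. The zinc effects after antibiotics and in SPF mice were therefore not shown to differ by edgeR.

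For germ-free against SPF mice, 0% of all genes and 0 of the 8 were called by edgeR, with 2 of the 8 and 1741 of all genes at an unadjusted p under 0.05. For germ-free against antibiotics mice, 0.207% of all genes and 0 of the 8 were called, with 1 of the 8 (Fdps, -2.74 ± 0.68, adjusted p = 0.0693) at an unadjusted p under 0.05. DESeq2 called 0 of the 8 in either, and limma-voom 1 in each, with 354 and 767 of 13070 genes.

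**Figure D2:**
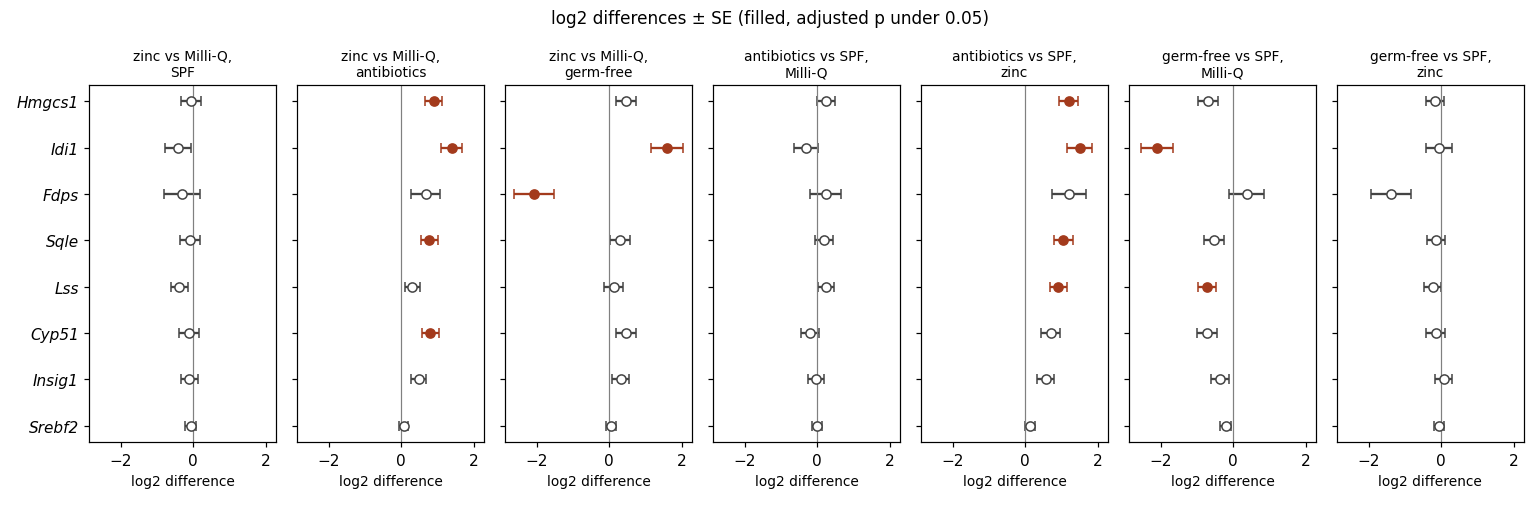
log2 differences (x axis) with SE bars for the 8 genes in the 7 comparisons of a pair of groups, filled where the edgeR adjusted p was under 0.05. Filled points to the right appear with zinc after antibiotics, in antibiotics against SPF mice on zinc water and, at 1.59, for Idi1 with zinc in germ-free mice, and filled points to the left for Fdps with zinc in germ-free mice and for Idi1 and Lss in germ-free against SPF mice on Milli-Q water.

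Contexts were then compared on each water. These comparisons share libraries with those of zinc, so that the antibiotics zinc group, for example, enters both. For antibiotics against SPF mice on Milli-Q water, 0 of the 8 genes passed by edgeR, 0 had an unadjusted p under 0.05, and DESeq2 and limma-voom called 0. The log2 differences ran from -0.32 ± 0.33 (SE) for Idi1 to 0.25 ± 0.25 for Hmgcs1, with a median of 0.09 against -0.01 over all genes, of which 0.199% were called.

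On zinc water, Hmgcs1, Sqle, Idi1 and Lss were higher in antibiotics than in SPF mice, 4 of 8 against 4.76% of all genes called higher and 8.97% called in either direction. The log2 differences were 1.20 ± 0.26 for Hmgcs1 (SE, edgeR adjusted p = 0.00807), 1.05 ± 0.26 for Sqle (adjusted p = 0.0145), 1.5 ± 0.34 for Idi1 (adjusted p = 0.0107) and 0.92 ± 0.23 for Lss (adjusted p = 0.0161). All 8 differences were above 0, with a median of 0.99 against 0.00 over all genes.

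In 6 genes, these 4 with Fdps and Cyp51, each of the 4 antibiotics libraries on zinc water lay above each of the 3 SPF libraries, as in 14.5% of all genes. Lss stood at 12.6, 17.5 and 13.5 CPM in SPF mice and at 32.5, 24.6, 30.9 and 22.1 CPM in antibiotics mice, so that the lowest of these was clear of the highest SPF library. Sqle stood at 14.8, 28 and 19.9 CPM in SPF mice against 35.4 to 51.3 CPM. Without SPF zinc replicate 1, the library with Xist counts, Sqle and Lss did not pass. In that fit 2 of the 8 and 573 of 13362 genes were called. Sqle also did not pass without SPF zinc replicate 3, nor did Lss without SPF zinc replicate 3 or antibiotics zinc replicate 1.

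In the same comparison, 7 of 8 enterocyte markers were lower in antibiotics mice (median log2 difference -3.35) and 4 of 7 goblet cell markers higher (median 1.26), and their part in the values of the cholesterol genes was not tested. Insig1 (0.57 ± 0.23, adjusted p = 0.110) and Srebf2 (0.14 ± 0.14) did not pass.

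Germ-free mice on Milli-Q water had lower Idi1 and Lss than SPF mice, 2 of 8 against 11.6% of all genes called lower, 12.7% called higher and 24.2% called at all. Idi1 stood at 6.34, 4.08 and 3.38 CPM in SPF mice and 1.55, 1.18 and 0.535 CPM in germ-free mice, and its log2 difference was -2.09 ± 0.44 (SE, edgeR adjusted p = 0.00180). Lss stood at 12.1, 26.9 and 17.4 CPM in SPF mice and 11.7, 12 and 10.6 CPM in germ-free mice, where the lowest SPF library was close to the highest germ-free one. Its log2 difference was -0.72 ± 0.25 (SE, adjusted p = 0.0378), and it did not pass in 4 of the 6 fits that left out a library, those without SPF Milli-Q replicate 2 or one of germ-free Milli-Q replicates 1, 2 and 3.

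With Hmgcs1 (-0.69 ± 0.28, edgeR adjusted p = 0.0734), 3 of the 8 genes had each germ-free library below each SPF library, as had 18.8% of all genes. Cyp51 (-0.73 ± 0.28, adjusted p = 0.0579), Sqle (-0.53 ± 0.28), Insig1 (-0.36 ± 0.25) and Srebf2 (-0.20 ± 0.15) were below 0 without passing, and Fdps was above 0 (0.37 ± 0.49). The median over the 8 genes was -0.61 against -0.03 over all genes. These values depend on the scaling. Scaled by library totals instead, all genes shifted to a median of -0.99 and the members to -1.60, and 7 of 8 members and 9264 of 13070 genes were called lower. Paneth cell markers were higher in germ-free mice (6 of 6 called, median log2 difference 1.42), and the share of Defa counts, at 42.8 to 44.5% against 24.1 to 33.5%, moved with the same groups, while 5 of 8 enteroendocrine markers were lower (median -2.03). Of 8 stem and cycling cell markers 3 were called lower and 1 higher (median -0.49). Germ-free and SPF libraries on Milli-Q water also stood apart in ribosomal RNA (4.28 to 6.57% against 1.44 to 2.51% of counts), in mitochondrial counts (0.599 to 1.21% against 1.89 to 2.16%) and in genes with counts (15098 to 15536 against 16876 to 17814). The part of these in the result was not tested.

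For germ-free against SPF mice on zinc water, 0 of the 8 genes passed by edgeR, and 5.85% of all genes were called. Of the 8, 1 (Fdps, -1.39 ± 0.55, edgeR adjusted p = 0.128) had an unadjusted p under 0.05, and DESeq2 called 0. By limma-voom 1 of the 8 and 2080 of 13070 genes were called. The median was -0.14 against 0.00 over all genes. With library totals, 6 of 8 members and 6278 of 13070 genes were called lower, at medians of -0.80 and -0.61.

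Levels of the genes other than Fdps tracked each other from library to library. Over the 21 libraries, the 28 pairs of members had a median Pearson r of log2 CPM of 0.76 (median Spearman rho also 0.76), from 0.02 for Fdps and Insig1 to 0.93 for Hmgcs1 with Sqle and for Sqle with Cyp51. The 7 pairs with Fdps held the low end, and the 21 pairs without it ran from 0.60 to 0.93 with a median of 0.79. With group means subtracted, which leaves the spread between mice of a group, the median was 0.58 (0.67 without Fdps), from -0.48 for Fdps and Insig1 to 0.89 for Sqle and Cyp51 and for Hmgcs1 and Insig1.

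Srebf2, which passed the test in no comparison, had r of 0.76 with Hmgcs1, 0.78 with Cyp51 and 0.83 with Insig1. These correlations are descriptions over libraries that share depth, scaling and the make-up of the sort, and the median r between a member and all other genes was 0.00. With library totals as the only scaling the median over pairs was 0.91, but that between members and other genes was 0.66. Averaged over the 8 genes, log2 CPM minus each gene's mean was highest in antibiotics zinc replicate 1 (1.04) and lowest in germ-free Milli-Q replicate 3 (-0.84). The 4 antibiotics zinc libraries, at 0.50 to 1.04, lay above all others, of which antibiotics Milli-Q replicate 1 was the highest at 0.44. Without Fdps the gap nearly closed, with antibiotics zinc replicate 2 at 0.41 and antibiotics Milli-Q replicate 1 at 0.40.

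**Figure D3:**
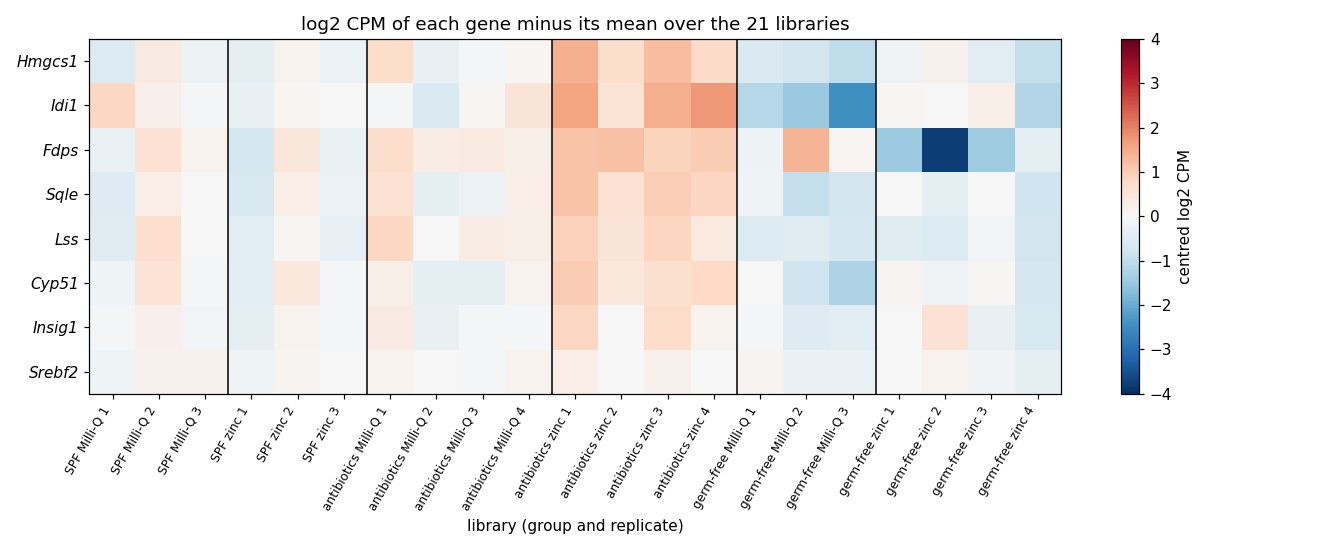
log2 CPM of each gene minus its mean over the 21 libraries (colour, red above and blue below the mean), with libraries in columns by group and genes in rows. The 4 antibiotics zinc libraries are red in nearly every row, Srebf2 is pale throughout, and Fdps is red in germ-free Milli-Q replicate 2 (1.35), where the other rows are blue, and deepest blue in germ-free zinc replicate 2 (-3.78).

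The 10 genes most like the mean of the members, over the 21 libraries and among 9345 genes whose mean reached 5 CPM, were Scd2 (Pearson r = 0.94), Msmo1 (0.93), Fam111a (0.89), Ptk2 (0.89), Gfm1 (0.86), Zranb2 (0.86), Usp1 (0.85), Prim1 (0.85), Fastkd2 (0.85) and Stard4 (0.85). Of these, 1 (Msmo1) is an enzyme of cholesterol synthesis. The median r of all 9345 genes with the members was 0.03. Not all enzymes of the pathway tracked the members, since Ebp (r = 0.07), Pmvk (0.04) and Tm7sf2 (0.28) did not.

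The pathway beyond the members was described by lists of its genes. Of 19 enzymes from acetoacetyl-CoA to cholesterol, 6 of which are members, 8 rose and 0 fell with zinc after antibiotics, with a median log2 difference of 0.49, where 10.2% of all genes rose. Of the 13 that are not members, 4 rose (Acat2, Lbr, Msmo1 and Nsdhl) with a median of 0.38, and 12 of 13 were above 0. Msmo1, which oxidises methyl groups of the sterol ring, rose by 1.03 ± 0.27 (SE, edgeR adjusted p = 0.0104). For antibiotics against SPF mice on zinc water, 11 of the 19 and 7 of the 13 were called higher and 0 lower, against 4.76% of all genes called higher, with medians of 0.73 and 0.48, and Msmo1 differed by 1.48 ± 0.30 (adjusted p = 0.00547).

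For germ-free against SPF mice on Milli-Q water, 5 of the 19 and 3 of the 13 (Lbr, Nsdhl and Hsd17b7) were called lower and 0 higher, with medians of -0.24 and -0.16, where 11.6% of all genes were called lower and 24.2% in either direction. Hsd17b7, a sterol ketoreductase, differed by -1.17 ± 0.27 (SE, edgeR adjusted p = 0.00345). Zinc in germ-free mice went with a rise of Lbr (0.60 ± 0.13, adjusted p = 0.0124), the nuclear envelope protein that also acts as a sterol reductase. It was the only 1 of the 13, where 5.89% of all genes were called higher. In SPF mice with zinc, in antibiotics against SPF mice on Milli-Q water and in germ-free against SPF mice on zinc water, edgeR called 0 of the 19.

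**Figure D4:**
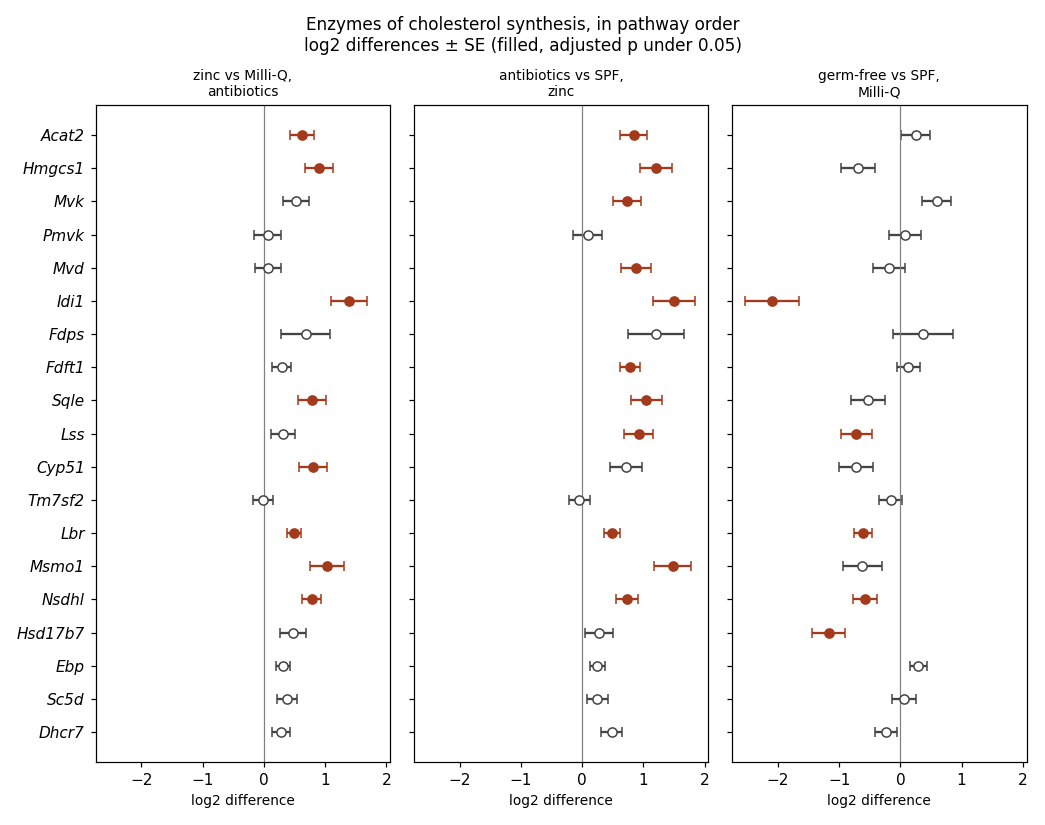
log2 differences (x axis) with SE bars of 19 enzymes of cholesterol synthesis in pathway order, filled where the edgeR adjusted p was under 0.05, for zinc after antibiotics, antibiotics against SPF on zinc, and germ-free against SPF on Milli-Q. The filled points lie to the right in the first pair of panels (8 and 11 of 19) and to the left in the last (5 of 19).

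Few genes of the machinery that senses sterols were called. Of its 7 genes (Srebf1, Srebf2, Scap, Insig1, Insig2, Mbtps1 and Mbtps2), 0 passed in any zinc comparison or for antibiotics against SPF mice by edgeR. For germ-free against SPF mice on Milli-Q water 2 were called lower, where 11.6% of all genes were called lower and 24.2% in either direction. These were Srebf1 (-0.70 ± 0.15, adjusted p = 0.00231), whose product drives fatty acid synthesis, and Mbtps1 (-0.41 ± 0.12, adjusted p = 0.0170), the first protease of SREBP processing.

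Genes of sterol uptake and trafficking (5 genes) moved in some of the same comparisons. Npc1l1, the transporter that takes up cholesterol from the gut lumen, was lower in antibiotics than in SPF mice on zinc water (-1.71 ± 0.33, SE, edgeR adjusted p = 0.00421), where 4.21% of all genes were called lower. Npc1l1 is also made by enterocytes, whose markers were lower in the same comparison, and their part in its value was not tested. For germ-free against SPF mice on Milli-Q water 2 of the 5 were called lower and 1 higher, against 11.6% and 12.7% of all genes. The lower ones were Npc1 (-0.62 ± 0.21, adjusted p = 0.0361), which moves cholesterol out of lysosomes, and Stard4 (-0.57 ± 0.19, adjusted p = 0.0290), a carrier of sterols between membranes. The higher one was Npc2 (0.53 ± 0.14, adjusted p = 0.00988), the partner of Npc1. With zinc after antibiotics only Stard4 of the 5 was called (0.54 ± 0.16, adjusted p = 0.0194), where 10.2% of all genes rose. On zinc water Npc1l1 was lower (-1.31 ± 0.33, adjusted p = 0.0238) and Npc2 higher (0.51 ± 0.14, adjusted p = 0.0308) in germ-free than in SPF mice. In that comparison 2.38% of all genes were called lower and 3.47% higher. Enterocyte markers had a median of -0.80 there, with 0 of 8 above 0 and 1 called lower, and their part was not tested.

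Genes of sterol efflux, esterification and the sterol sensor LXR (9 genes) lay mostly below 0 after antibiotics, with 3 called lower and 0 higher with zinc and a median of -0.30, where 11.5% of all genes were called lower. Soat2, which esterifies cholesterol, differed by -0.73 ± 0.22 (SE, edgeR adjusted p = 0.0201) and Nr1h2, which encodes LXR beta, by -0.73 ± 0.14 (adjusted p = 0.00203). On zinc water, Abcg5 (-1.32 ± 0.23, adjusted p = 0.00271) and Abcg8 (-0.82 ± 0.25, adjusted p = 0.0424), which together form a sterol exporter, were lower in antibiotics than in SPF mice. There 4.21% of all genes were called lower. Enterocyte markers were also lower, and their part was not tested. Zinc in germ-free mice went with lower Nr1h2 (-0.48 ± 0.15, adjusted p = 0.0452), where 5.47% of all genes were called lower.

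Among 10 genes of fatty acid synthesis, 3 rose with zinc after antibiotics, where 10.2% of all genes rose. They were led by Scd1 (3.82 ± 0.95, edgeR adjusted p = 0.00813) and Me1 (2.92 ± 0.59, adjusted p = 0.00266), and the third was Scd2. Scd1 stood at 0.0480 to 0.300 CPM on Milli-Q water and 1.18 to 3.84 CPM on zinc water, so its fold rests on few reads. For antibiotics against SPF mice on zinc water 2 rose, Scd2 (1.44 ± 0.38, adjusted p = 0.0236) and Fasn (0.79 ± 0.16, adjusted p = 0.00527), against 4.76% of all genes. For germ-free against SPF mice on Milli-Q water 4 were lower, where 11.6% of all genes were called lower and 24.2% in either direction. Scd2, a stearoyl-CoA desaturase, stood at 33.2, 119 and 71.6 CPM in SPF mice and 25.9, 15.2 and 9.21 CPM in germ-free mice (-2.16 ± 0.43, adjusted p = 0.00110). Scd1 (-4.03 ± 1.33, adjusted p = 0.0307) rested on 6.43 CPM in SPF Milli-Q replicate 2 alone, against 0 and 0.193 CPM in the other SPF libraries. On zinc water Elovl6, a fatty acid elongase, was lower in germ-free than in SPF mice (-1.06 ± 0.19, adjusted p = 0.00473), against 2.38% of all genes. Of the 11 genes of the non-sterol branches of the mevalonate pathway (prenylation, ubiquinone and dolichol), 1 rose with zinc after antibiotics, Nus1 (0.42 ± 0.14, adjusted p = 0.0386), and edgeR called 0 in the 6 other comparisons of a pair of groups.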

How the data were processed

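Paneth cells were sorted by FACS from mouse small intestine, and stranded mRNA libraries were made from their total RNA (21 libraries, 6 groups taken from the sample labels). The authors deposited raw counts by Ensembl gene in 1 table, a column per library (0 columns had no sample). The submitters' processing notes name FastQC 0.12.0, STAR 2.7.0a, DESeq2 and mm39, but the counting tool, the strand setting and the rule for reads of several matches were not given in the sources used here. Of 55414 identifiers, 54749 matched GENCODE M39, and the 665 others held 0.0164% of counts.

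All libraries entered a single edgeR 4.0.16 quasi-likelihood fit (limma 3.58.1, R 4.3.3) with 1 mean per group and TMM scaling, and filterByExpr left 13070 genes. Benjamini-Hochberg adjustment was made within each of 11 comparisons, at a threshold of 0.05. CPM values were TMM-scaled, log2 CPM used a prior count of 2, and TPM used the longest transcript of each protein-coding gene. Total counts of 9888174 to 16896714 limit the precision of low genes. On simulated data with 200 genes changed, edgeR recovered 69% of 2-fold changes for zinc after antibiotics, 65% in SPF mice and 53% in germ-free mice, with 5.88, 4.38 and 2.82% of calls false (12881, 12949 and 12959 genes). In the same order DESeq2 had 15.3, 7.56 and 8.23% of calls false and limma-voom 4.27, 5.62 and 2.86%. The data had 2838, 18 and 1485 genes called in these comparisons, and the changed genes were drawn at random from all levels. The rates therefore need not hold for the data or for genes as low as Idi1 and Fdps.

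The members, lists and tests were chosen with earlier results of these data known. From each list the 2 genes that rose most and the 2 that fell most among those called were named per comparison. Some genes of the pathway lists are not reported here, and list counts and the search for similar genes leave them out, while the fits hold all genes. The 8 members were given whatever their values, as were the 10 genes most like them, and genes named beyond this were chosen after their values were seen. Promoters came from a RefSeq table. Alternatives to scaling were size factors of the DESeq2 type, library totals, and TMM leaving out Defa genes. Alternatives to the test were DESeq2 1.42.0 and limma-voom (quality weights), and to the filter no filter or 10 counts in 10 libraries. Further fits used the groups of a comparison alone, a replicate block, or all libraries but 1. Replicate numbers of the titles showed no clear pairing of the libraries. Figures were drawn with matplotlib 3.10.9.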

Additional observations from a re-analysis of the deposited data

How the results depend on the processing

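Counts of members called stayed within 1.5 times of those reported with DESeq2-type size factors, with TMM factors without the Defa genes and with 10 counts in 10 libraries in all 11 comparisons. With library totals only, 1 member was called for zinc after antibiotics, 1 for zinc in germ-free mice and 1 for zinc averaged over contexts. Of all 13070 genes, 1445, 734 and 1286 were called in these. For germ-free against SPF, 7 members and 9338 genes were called on Milli-Q, and 6 members and 6310 genes on zinc. With DESeq2, 4 members and 3502 of 13070 genes were called for germ-free against SPF on Milli-Q. DESeq2 called 1 member and 260 genes for the zinc effect in antibiotics minus SPF. With limma-voom, 4 were called for zinc in germ-free mice (3 higher, 1 lower) and 5 averaged (4 higher, 1 lower). It called 3157 and 4126 of 13070 genes in these. For germ-free against SPF on zinc it called 1 member and 2080 genes. Each difference of the zinc effect had 1 member called. The genes called were 473 in antibiotics minus SPF, 354 in germ-free minus SPF and 767 in germ-free minus antibiotics. With no filter on low counts, 4 were called for zinc in germ-free mice and 4 averaged, with 1906 and 3064 of 24548 genes. For antibiotics against SPF on zinc 7 members and 1491 genes were called, and for germ-free against SPF on Milli-Q 5 and 3224. For the differences of the zinc effect without the filter, 4 members and 675 genes were called in antibiotics minus SPF. The counts were 1 and 429 in germ-free minus SPF and 1 and 323 in germ-free minus antibiotics. With only the groups compared, 0 members and 3 of 11448 genes were called for zinc in germ-free mice. For the zinc effect in antibiotics minus SPF, 1 member and 249 of 13036 genes were called. The fit with only the groups compared is the same as that reported for the average over contexts. The causes were not tested. No called log2 difference of a member changed sign under these alternatives. The median correlation between members was 0.76, and 0.58 with group means subtracted and 0.91 with library totals.

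Leaving out each library in turn gave 2 to 5 members called for zinc after antibiotics, 0 to 3 in germ-free mice, 1 to 5 averaged, 2 to 4 for antibiotics against SPF on zinc, 1 to 4 for germ-free against SPF on Milli-Q and 0 to 1 on zinc. For the differences of the zinc effect it gave 0 to 0 in antibiotics minus SPF, 0 to 2 in germ-free minus SPF and 0 to 1 in germ-free minus antibiotics. Zinc in SPF mice and antibiotics against SPF on Milli-Q stayed at 0. For germ-free against SPF on Milli-Q they called 3253 and 1661. For antibiotics against SPF on zinc 272 of 13345 were called without SPF zinc replicate 2 and 1059 of 13026 without antibiotics zinc replicate 2. For germ-free against SPF on zinc 541 of 13362 were called without SPF zinc replicate 1 and 51 of 13345 without replicate 2. The counts of members alone therefore do not measure their stability. The median correlation between members ran from 0.74 to 0.81.

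The replicate numbers did not pair the libraries, since deviations of same-numbered libraries from their group means had correlations of -0.39 to 0.23 over 48 pairs (median 0.015), of which 6 were over 0.1. With the replicate block, 4 members were called for zinc after antibiotics, 2 in germ-free mice and 2 averaged. It called 4 for antibiotics against SPF on zinc and 2 for germ-free against SPF on Milli-Q, and changed none of these counts. Of 13070 genes, 2707, 1416, 2831, 934 and 3035 were called in the same order. Depth limits Idi1 and Fdps, which had as few as 5 and 0 counts in a library.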
